A study of Mus musculus with 5 samples.

Results

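Col17a1-high non-cycling basal keratinocytes are the cells of the deepest epidermal layer in which collagen XVII made up a large share of the messenger RNA and few mitosis genes were seen. They were chosen by a rule on measured counts. Barcodes entered with 200 or more genes detected and no more than 10% of counts from mitochondrial genes, and such a kept barcode was called basal with at least 100 counts of Krt5 and Krt14 together per 10000, under 50 of Krt1 and Krt10 together and under 5 of Krt79. Among these, the Col17a1-high cells held at least 10 Col17a1 counts per 10000 and had a count of fewer than 3 of the 7 genes Ube2c, Cdc20, Top2a, Birc5, Cenpf, Cenpa and Ccnb1. The rule found 886 Col17a1-high cells among 26845 kept and 27317 deposited barcodes. The 4197 other non-cycling basal cells met the same rule with less Col17a1 and are called other basal cells here, and 423 further basal cells were cycling.

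The study counted RNA in single cells of C57BL/6 mouse skin by a 10x Genomics 3' kit, on suspensions that had been sorted for live cells. Wounded skin (n = 3 libraries) came from mice given a 6-mm punch wound at 7 weeks of age, from which a 10-mm disc holding the wound was collected 4 days later. Un-wounded skin (n = 2 libraries) came from the same strain with no wound. No transgene or drug is named in the labels for either group, and nothing in them says that the libraries came from separate animals, so the spread between libraries may be partly technical.

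The epidermis rests on a basement membrane to which its basal cells are fastened by hemidesmosomes. Collagen XVII, the product of Col17a1, is a transmembrane collagen of the hemidesmosome that works beside integrin α6β4, plectin and dystonin (BPAG1) and binds laminin outside the cell. Basal cells that leave this layer lose these contacts and start to differentiate, and the transcription factor p63, encoded by Trp63, maintains the basal state. Early response genes such as Fos, Jun and Egr1 encode transcription factors made within minutes of a stimulus, among them growth factors, injury and the handling of cells.

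Col17a1 lies on chromosome 19, at chr19:47646344-47692094 on the minus strand of GRCm38. Its promoter is shown because Col17a1 defined the cells, and that of Fos because early response genes set the cells apart below. Both windows run from 250 bases before to 50 after the transcript's start, as RefSeq gives them for GRCm38.p6, at chr19:47691993-47692292 on the minus strand and chr12:85473640-85473939 on the plus strand. Capitals mark the letters TATAAA.
Col17a1: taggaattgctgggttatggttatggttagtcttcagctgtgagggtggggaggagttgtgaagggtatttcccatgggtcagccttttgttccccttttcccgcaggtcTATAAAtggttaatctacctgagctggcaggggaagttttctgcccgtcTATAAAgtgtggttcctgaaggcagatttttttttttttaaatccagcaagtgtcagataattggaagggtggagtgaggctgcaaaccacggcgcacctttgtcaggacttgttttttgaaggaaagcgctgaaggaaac
Fos: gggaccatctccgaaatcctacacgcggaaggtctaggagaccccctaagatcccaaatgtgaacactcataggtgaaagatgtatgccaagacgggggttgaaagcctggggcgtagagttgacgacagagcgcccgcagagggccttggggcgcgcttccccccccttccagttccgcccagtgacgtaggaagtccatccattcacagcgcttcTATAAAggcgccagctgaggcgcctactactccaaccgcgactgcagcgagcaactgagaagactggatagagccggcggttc
TATAAA, searched on both strands, stood in 13.6% of 32817 promoter windows of the same length, in 2 of the 13 early response promoters that matched (Fos and Junb) and in 1 of 7 windows of 4 hemidesmosome genes, which is near that background. The cAMP response letters TGACGTCA stood in 1.79% of all windows and in those of Btg2 and Dusp1 among the 13. The letters TGANTCA (AP-1) stood in 7.81% of all windows, and in 0 of the 13 early response and 0 of the 7 hemidesmosome windows. The serum response motif stood in 0.183% of all windows and likewise in 0 of the 13 and 0 of the 7. These are letter matches in a short window and not measured sites.

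The deposited tables held between 4152 and 7578 barcodes and between 33537809 and 59621412 unique molecular identifiers (UMIs, each standing for 1 captured RNA molecule) per library. Between 26 and 63 barcodes were shared by pairs of libraries and 0 of the shared barcodes were Col17a1-high cells. Of the Col17a1-high cells, 176 came from wounded library 1, 8 from wounded library 2 and 6 from wounded library 3, against 385 from un-wounded library 1 and 311 from un-wounded library 2. Wounded libraries 2 and 3 therefore hold few of these cells, and 1 UMI in their summed counts is worth 20.02 and 15.7 CPM (a gene's UMIs over all UMIs of the set, scaled to the same total in each library), against 1.07 CPM in wounded library 1 and 0.538 and 0.517 CPM in the un-wounded libraries. Tests of gene expression used libraries with at least 10 Col17a1-high cells, which left wounded library 1 and the 2 un-wounded libraries. Fits over all 5 libraries, chosen after the counts were seen, are given beside them.

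The label of the cells was checked with the markers Krt14, Col17a1, Trp63, Itgb4 and Lamb3, of which the rule had used Krt14 and Col17a1. Krt14 stood at 19309, 12151 and 19483 CPM in Col17a1-high cells of wounded libraries 1, 2 and 3, and at 12479 and 9966 CPM in un-wounded libraries 1 and 2. Trp63 stood at 375, 400 and 235 CPM in wounded and at 417 and 473 CPM in un-wounded libraries, against 82.0, 16.3, 19.1, 205 and 174 CPM over all other kept barcodes of the same libraries in that order. Itgb4, the β4 chain of the hemidesmosome integrin, stood between 110 and 180 CPM in Col17a1-high cells of the 5 libraries, and between 7.89 and 71.1 CPM in the other kept barcodes. Lamb3, the β3 chain of the laminin that hemidesmosomes bind, stood between 126 and 207 CPM in Col17a1-high cells and between 7.86 and 97.1 CPM in the other kept barcodes. All 5 markers were thus present in the cells of each library, and the data do not go against the label.

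Col17a1 formed 1 continuous range and no separate population stood at its upper end. Of the cells near the threshold, 511 other basal cells held between 8 and 10 counts per 10000, and 329 of the 886 Col17a1-high cells held between 10 and 12. The lowest Col17a1-high cell held 4 Col17a1 UMIs among 3998, or 10.005 per 10000, and the highest cell outside held 7 among 7001, or 9.99857 per 10000. The median was 12.2, 12.7 and 11.2 per 10000 in Col17a1-high cells of wounded libraries 1, 2 and 3, and 13.6 and 13.98 in un-wounded libraries 1 and 2. In other basal cells it was 4.28, 5.17 and 4.25 in wounded and 4.21 and 5.62 in un-wounded libraries. These values chose the cells and were not tested. A median of 6 to 11.5 Col17a1 UMIs per cell stood behind them, so counting error alone moves cells across the threshold.

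**Figure D1:**
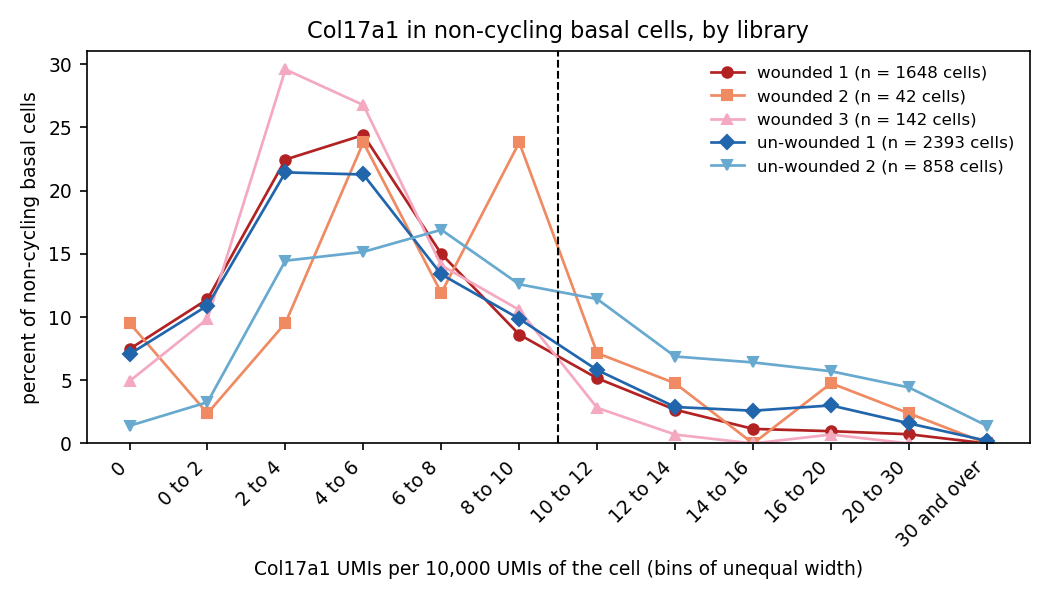
Distribution of Col17a1 counts per 10000 UMIs (x axis, bins of unequal width) as the percent of non-cycling basal cells in each bin (y axis), with a line per library and the rule's threshold of 10 dashed. Every library falls off through the threshold without a gap, and un-wounded library 2 has the heaviest upper end.

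Col17a1-high cells were a smaller share of the kept barcodes in wounded than in un-wounded skin. They made up 2.34% in wounded library 1 (exact Clopper-Pearson 95% interval 2.01 to 2.71), 0.175% in wounded library 2 (0.0757 to 0.345) and 0.145% in wounded library 3 (0.0534 to 0.316), against 7.31% (6.62 to 8.05) and 5.79% (5.18 to 6.45) in un-wounded libraries 1 and 2. The groups did not overlap, with means of 0.887 ± 1.26% (SD, n = 3) in wounded and 6.55 ± 1.08% (SD, n = 2) in un-wounded skin. The exact two-sided permutation test gave p = 0.1, the smallest that 10 assignments of 5 libraries allow, and 0.3 after Benjamini-Hochberg adjustment over the 6 quantities tested. Intervals cover counting error only. All basal cells numbered 1809, 53 and 170 of 7516, 4567 and 4124 kept barcodes in wounded libraries, against 2540 and 934 of 5264 and 5374 in un-wounded libraries. Wounded libraries 2 and 3 had the fewest basal cells of any kind, whereas wounded library 1 had more of them than un-wounded library 2 and yet fewer Col17a1-high cells.

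Within the basal layer the groups lay closer together. Of non-cycling basal cells, Col17a1-high cells were 10.7% in wounded library 1 (9.23 to 12.3), 19.0% in wounded library 2 (8.60 to 34.1) and 4.23% in wounded library 3 (1.57 to 8.97), against 16.1% (14.6 to 17.6) and 36.2% (33.0 to 39.6) in un-wounded libraries 1 and 2. Wounded library 2 lay above un-wounded library 1, so the groups overlapped, and the exact two-sided permutation test of the means (11.3 ± 7.43% in wounded, n = 3, and 26.2 ± 14.3% in un-wounded skin, n = 2, SD) gave p = 0.3. As a share of all basal cells, cycling ones included, the values were 9.73, 15.1 and 3.53% in wounded and 15.2 and 33.298% in un-wounded libraries, which did not overlap although wounded library 2 lay just under un-wounded library 1 (exact permutation p = 0.1). When each cell was thinned to 2000 UMIs and the rule applied again, 26.6, 38.1 and 22.9% of non-cycling basal cells passed in wounded and 30.7 and 50.5% in un-wounded libraries. Between 67.8 and 100% of the Col17a1-high cells of a library also passed after thinning.

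**Figure D2:**
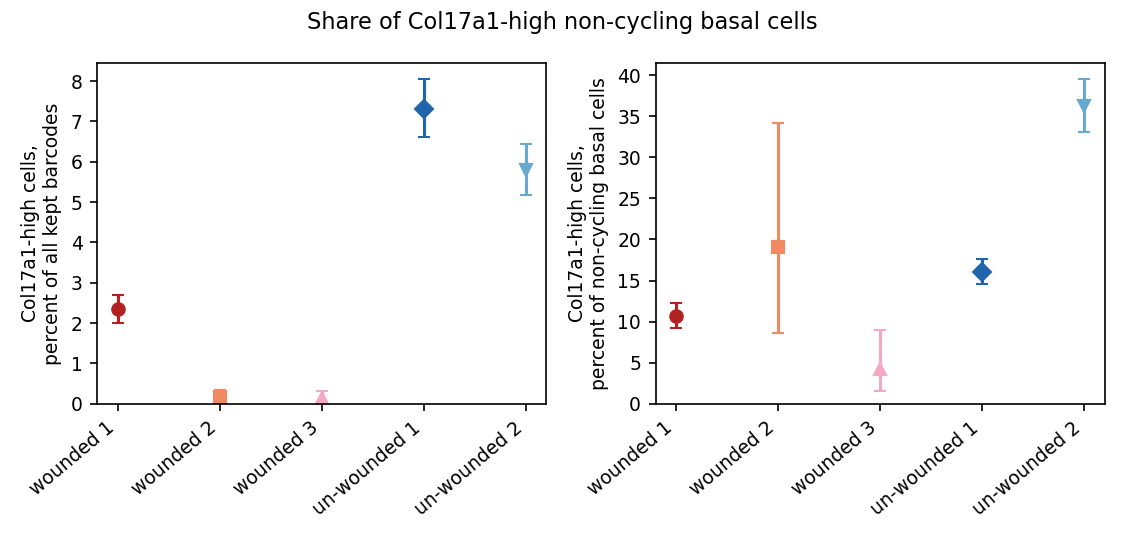
Share of Col17a1-high cells (y axis, percent) among all kept barcodes (left) and among non-cycling basal cells (right), with 1 point per library and exact 95% intervals for counting error. Wounded libraries lie below un-wounded ones on the left, and wounded library 2 lies above un-wounded library 1 on the right.

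Col17a1-high cells were shallower than other basal cells in each library. Their median depth was 5069.5, 5101 and 8824 UMIs in wounded libraries 1, 2 and 3 and 4580 and 6119 in un-wounded libraries, against 6573, 6809 and 11207.5 in wounded and 6533.5 and 8900 in un-wounded other basal cells. Their median mitochondrial share was 3.31, 3.41 and 2.94% in wounded and 3.70 and 3.30% in un-wounded libraries, against 2.52, 3.30 and 2.38% in wounded and 2.57 and 2.66% in un-wounded other basal cells, so it was higher in all 5 libraries. Depth and mitochondrial share thus moved with the split by Col17a1. Between wounded and un-wounded skin the cells' median depth (6332 ± 2159 in wounded and 5350 ± 1088 UMIs in un-wounded skin), genes per cell (1729 ± 224 and 1745 ± 206 in that order) and mitochondrial share (3.22 ± 0.246 and 3.50 ± 0.286%) overlapped, with exact permutation p of 0.8, 0.9 and 0.5 (SD, n = 3 wounded and 2 un-wounded).

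Within the same libraries, Col17a1-high cells carried more RNA of other hemidesmosome, laminin and basement membrane genes than other basal cells, and less RNA of early response, heat shock and stress keratin genes. UMIs were summed per library over each set and compared with library as a block by edgeR's quasi-likelihood test with Benjamini-Hochberg adjustment; the 3 libraries tested were wounded 1 and un-wounded 1 and 2. Of 11012 genes tested, 872 (7.92%) differed at an adjusted p under 0.05, of which 278 were higher (2.52%) and 594 lower (5.39%) in Col17a1-high cells. Without TMM scaling the split was 574 higher and 380 lower, with the median of all genes moved to 0.10 from -0.00 (log2), so a small difference takes its sign from the scaling. Over all 5 libraries 913 of 9464 genes (9.65%) differed, 299 higher (3.16%) and 614 lower (6.49%). Genes of the rule were not tested. After thinning every cell to 2000 UMIs 487 genes differed. Of the named genes that had passed, 9 did not pass after thinning (Agrn, Lamb3, Fermt1, Ltbp4, Pdzd2, Ccnd2, Krt15, Jup and Ifi27l2a), and with a mitochondrial limit of 5% Ccnd2 alone did not.

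Markers of several other cell types also stood lower in Col17a1-high than in other basal cells, while those of some did not. The 4 MHC class II genes, all called lower, summed to 258, 601 and 298 CPM in Col17a1-high cells of wounded libraries 1, 2 and 3 and to 253 and 158 CPM in those of un-wounded libraries, against 885, 598, 518, 334 and 238 CPM in other basal cells of the same libraries. Fibroblast markers, 4 of 6 called lower, summed to 1301, 581 and 267 CPM in wounded and 428 and 966 CPM in un-wounded Col17a1-high cells, against 1429.5, 648, 865, 484 and 1505 CPM in other basal cells. Neutrophil markers had 2 of 5 called lower, pericyte or smooth muscle markers 2 of 4, and skeletal muscle, erythroid, sebocyte and upper hair follicle markers 1 of 4 each. Bulge and outer root sheath markers went both ways, with 2 of 8 called higher and 2 called lower. The sums were lower in all 5 libraries for fibroblast markers and in all but wounded library 2 for MHC class II, and the part of RNA from other cells in the differences below was not tested.

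Among genes of the hemidesmosome and its laminin other than Col17a1, 4 of 8 were higher in Col17a1-high cells and 0 lower, with a median log2 difference of 0.29, against -0.00 over all genes and 2.52% of all genes called higher. All 8 differences were above 0, and 5 of the 8 genes were above other basal cells in each of the 5 libraries. The list holds partners of the gene that chose the cells.

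Lama3, the α3 chain of that laminin, had the largest difference of the list. It stood at 44.9, 40.04 and 78.5 CPM in Col17a1-high cells of wounded libraries 1, 2 and 3 and at 47.9 and 51.2 CPM in those of un-wounded libraries, against 25.1, 34.5 and 19.8 CPM in wounded and 26.2 and 29.8 CPM in un-wounded other basal cells. The Col17a1-high cells were above the others in all 5 libraries, with a log2 difference of 0.73 ± 0.11 (SE, edgeR adjusted p = 0.000896). Dst, which encodes dystonin, stood at 229, 220 and 377 CPM in wounded and 231 and 396 CPM in un-wounded Col17a1-high cells, against 186, 211, 178, 162 and 274 CPM in other basal cells of the same libraries (0.35 ± 0.08, edgeR adjusted p = 0.0123). It too was higher in all 5 libraries.

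Itgb4 was higher by 0.34 ± 0.09 (SE, edgeR adjusted p = 0.0289) and Lamb3 by 0.31 ± 0.08 (edgeR adjusted p = 0.0280), both above other basal cells in all 5 libraries. Plec, encoding the linker plectin, differed by 0.28 ± 0.08 in the same direction but missed the threshold (edgeR adjusted p = 0.0581). Itga6, the α6 chain of the integrin (0.17 ± 0.08), and the tetraspanin gene Cd151 (0.02 ± 0.09) did not pass either. These small differences depended on the libraries: 1 or 2 of the 8 passed when any of the 3 libraries was left out, 1 (Lama3) over all 5, 6 without TMM scaling, 2 with DESeq2 and 3 after thinning to 2000 UMIs.

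Of 15 basement membrane genes tested, 5 were higher (Col7a1, Lama5, Lamb2, Col18a1 and Agrn) and 0 lower, with a median of 0.45, against 2.52% of all genes called higher. Col7a1 encodes the collagen VII of the anchoring fibrils. It stood at 82.3, 160 and 47.1 CPM in wounded and 82.9 and 106 CPM in un-wounded Col17a1-high cells, against 48.2, 26.8, 33.1, 50.5 and 55.1 CPM in other basal cells of the same libraries, and was higher in all 5 (0.71 ± 0.10, SE, edgeR adjusted p = 0.000287). Agrn, encoding the proteoglycan agrin, was higher by 0.68 ± 0.11 (edgeR adjusted p = 0.000759), though wounded library 3 had 15.7 CPM in either set, which is 1 UMI in Col17a1-high and 27 UMIs in other basal cells. The same 5 genes passed over all 5 libraries, while 2 of 15 passed with DESeq2 or without un-wounded library 1, and 2 of 13 after thinning. Of 14 integrin and focal adhesion genes Fermt1, encoding kindlin-1, alone was higher and 0 were lower (0.39 ± 0.09, edgeR adjusted p = 0.0200), while Itgb1 (0.17 ± 0.09) and Itga3 (0.20 ± 0.13) missed the threshold.

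Trp63 was the epidermal fate factor that was higher in Col17a1-high cells, and 6 of 13 factors tested were lower. With the CPM given above against 217, 234 and 129 CPM in wounded and 238 and 325 CPM in un-wounded other basal cells, Trp63 was higher in all 5 libraries (0.60 ± 0.08, SE, edgeR adjusted p = 0.000171). The factors that were lower included Klf5, Sox9 and also Klf4, Ovol1 and Zfp750, which promote terminal differentiation. Klf4 stood at 226, 40.04 and 204 CPM in wounded and 192 and 282 CPM in un-wounded Col17a1-high cells, against 437, 495, 227, 422 and 502 CPM in other basal cells of the same libraries. It was lower in all 5 libraries (-1.08 ± 0.08, edgeR adjusted p = 3.01e-06). Ovol1 was lower by a log2 difference of -1.71 ± 0.16 (edgeR adjusted p = 1.45e-05), with wounded library 3 the exception at 157 CPM in Col17a1-high and 108 CPM in other basal cells.

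Every early response gene tested was lower in Col17a1-high cells: 15 of 15, with a median log2 difference of -1.09 and a range of -1.94 (Ier3) to -0.67, against 5.39% of all genes called lower. In 13 of the 15, Col17a1-high cells were lower in each of the 5 libraries. All 15 were lower also without TMM scaling, with DESeq2, after thinning to 2000 UMIs, with a mitochondrial limit of 5%, over all 5 libraries and when any library was left out; with Col17a1 of at least 5 per 10000 as the threshold 1 of the 15 passed.

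Ier3, an early response gene linked to cell survival, stood at 497, 80.1 and 471 CPM in Col17a1-high cells of wounded libraries 1, 2 and 3 and at 141 and 70.8 CPM in those of un-wounded libraries 1 and 2. Other basal cells of the same libraries had 952, 690, 701, 705 and 386 CPM, all above (-1.94 ± 0.20, SE, edgeR adjusted p = 2.33e-05). Fos stood at 2852, 1882 and 1460.0 CPM in wounded and 3444 and 1630 CPM in un-wounded Col17a1-high cells, against 3918, 2500.1, 1631, 5519 and 3799 CPM in other basal cells of the same libraries (-0.89 ± 0.10, edgeR adjusted p = 5.24e-05). In each library the Col17a1-high cells had less. Junb, another AP-1 subunit, stood at 2388, 721 and 1334 CPM in wounded and 2268 and 900 CPM in un-wounded Col17a1-high cells, against 3869, 1227, 1666, 3786 and 2252 CPM (-1.02 ± 0.09, edgeR adjusted p = 1.16e-05). Jun was lower by -1.09 ± 0.11 (edgeR adjusted p = 1.56e-05). Egr2, encoding a zinc finger factor related to Egr1, was lower by -2.29 ± 0.23 (edgeR adjusted p = 1.86e-05).

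**Figure D3:**
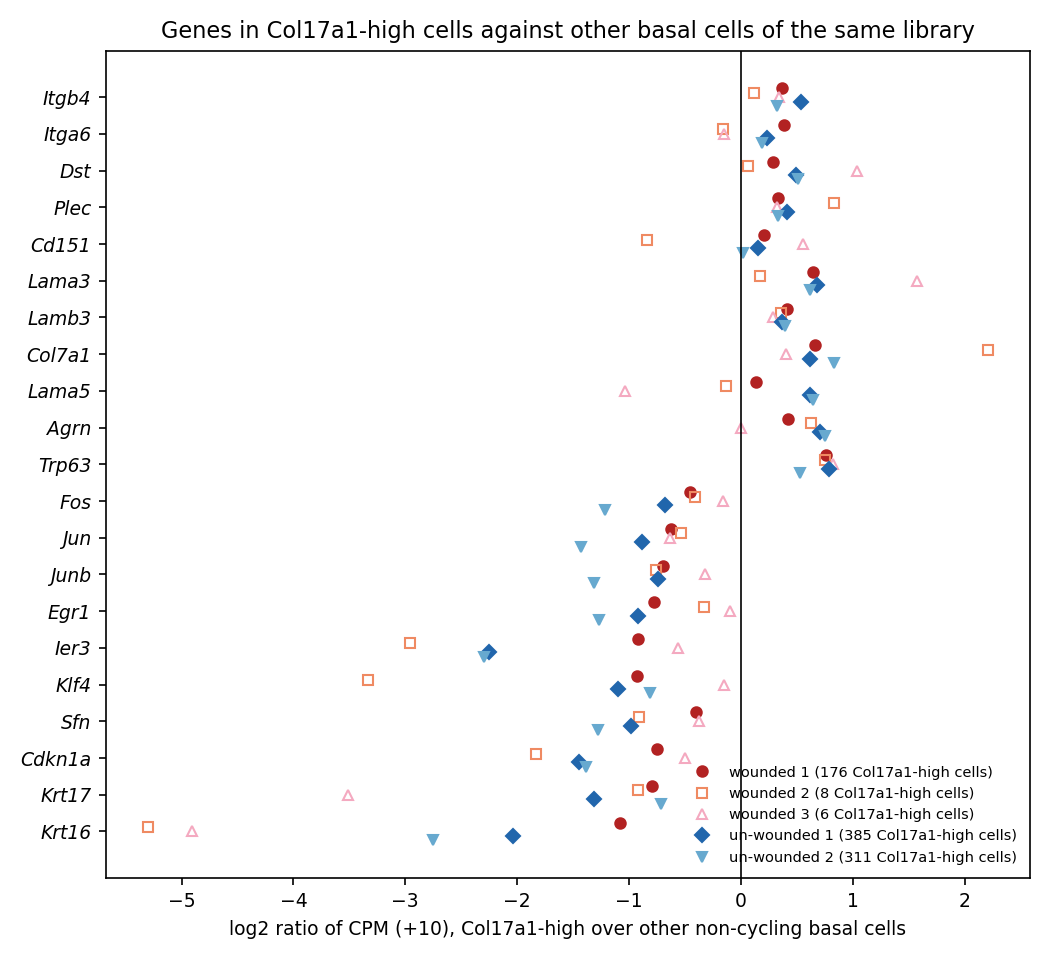
Log2 ratio of CPM (with 10 CPM added) in Col17a1-high over other non-cycling basal cells (x axis) for 21 genes (y axis), with 1 point per library; open points mark wounded libraries 2 and 3, which hold 8 and 6 Col17a1-high cells. Hemidesmosome, basement membrane and Trp63 ratios lie mostly right of 0, and every early response, Klf4, Sfn, Cdkn1a, Krt17 and Krt16 ratio lies left of it.

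The 2 sides were also seen along the whole range of Col17a1, over bins of at least 20 cells, as a description without a test. In un-wounded library 1 the 15 early response genes summed to 10196 CPM in cells of at least 20 Col17a1 counts per 10000, against 38241 CPM in cells under 2, while the 8 hemidesmosome genes other than Col17a1 summed to 1827 against 843 CPM and Trp63 to 625 against 198 CPM. In un-wounded library 2 the same bins had 7006 against 31484 CPM of early response, 2125 against 1056 CPM of hemidesmosome and 681 against 250 CPM of Trp63 RNA. In wounded library 1 the highest bin that held enough cells, 14 to 20 per 10000, had 8020 against 32252 CPM of early response, 1082 against 791 CPM of hemidesmosome and 530 against 182 CPM of Trp63 RNA. Wounded library 3, with no bin above 8, did not show this order for early response RNA, which was lowest (8738 CPM) in cells under 2 per 10000. Median depth went the same way as early response RNA, at 3223, 3624 and 3976 UMIs in the top bins named of un-wounded 1, un-wounded 2 and wounded 1, against 6530, 7265 and 6089 UMIs in the lowest; the part of depth along these bins was not tested.

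**Figure D4:**
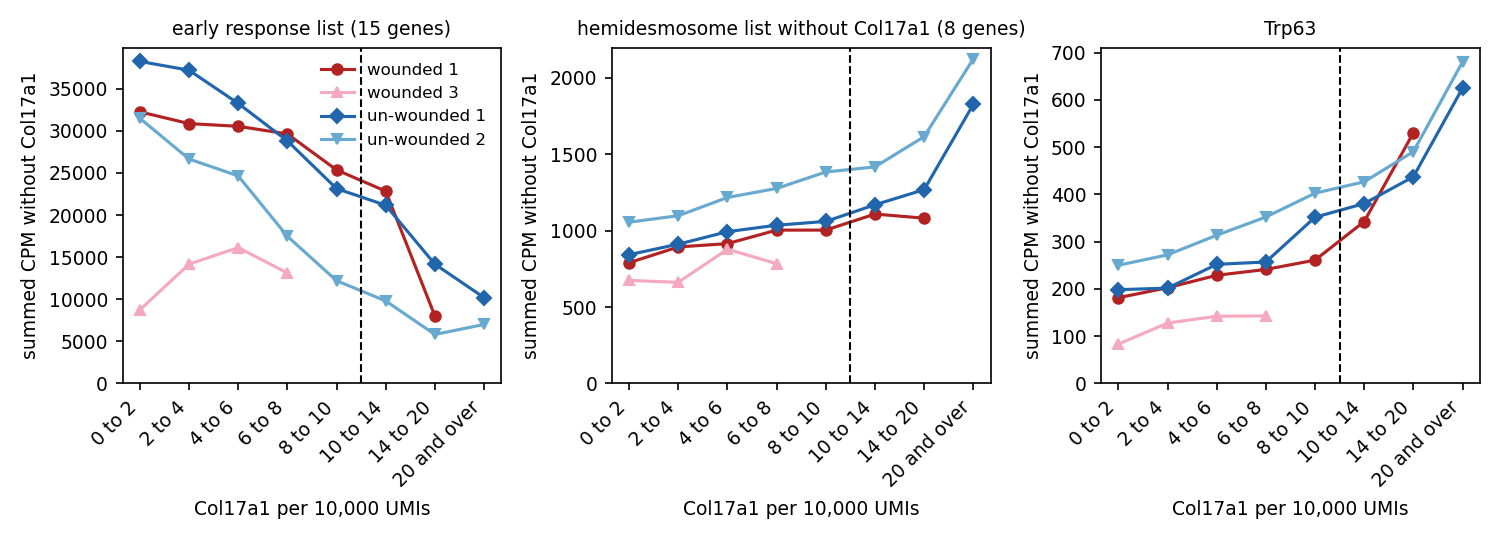
Summed CPM, computed without Col17a1 (y axes), of the early response list, of the hemidesmosome and laminin list and of Trp63 in non-cycling basal cells by Col17a1 counts per 10000 (x axes), with a line per library over bins of at least 20 cells and the threshold of 10 dashed. Early response RNA is lowest, and hemidesmosome and Trp63 RNA highest, toward the high-Col17a1 end in wounded library 1 and both un-wounded libraries; wounded library 2 had no such bin.

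Genes of growth arrest differed in both directions. Sfn, encoding 14-3-3σ, a protein of arrest and differentiation, stood at 7805, 2182.0 and 4129 CPM in wounded and 4633 and 1803 CPM in un-wounded Col17a1-high cells, against 10286, 4099, 5370, 9166 and 4375 CPM in other basal cells of the same libraries. It was lower in all 5 libraries (-0.99 ± 0.11, SE, edgeR adjusted p = 4.31e-05). The cyclin-dependent kinase inhibitor gene Cdkn1a was lower as well (-1.34 ± 0.12, edgeR adjusted p = 9.28e-06), as was Gadd45a, whereas Cdkn1b, encoding the related inhibitor p27, and Phlda3 were higher. The list counted 2 higher and 3 lower of 9 tested, with a median of 0.05. Of 15 genes of G1 and S phase, 1 was lower (Ccnd2, -0.28 ± 0.07, edgeR adjusted p = 0.0347) and 0 were higher; the rule itself had limited mitosis genes. Over all genes 5.39% were called lower and 2.52% higher.

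Stress keratins and alarmins were lower in Col17a1-high cells, 10 of 14 with 0 higher and a median of -2.00, against 5.39% of all genes called lower. Krt16, a keratin induced in stressed epidermis, stood at 205, 20.02 and 31.4 CPM in wounded and 13.999 and 21.7 CPM in un-wounded Col17a1-high cells, against 444, 1173, 1234, 88.4 and 204 CPM in other basal cells of the same libraries, and was lower in all 5 (-2.13 ± 0.25, SE, edgeR adjusted p = 7.60e-05). Krt17 was lower in all 5 libraries too (-1.07 ± 0.10, edgeR adjusted p = 1.12e-05). The list's count rested on wounded library 1: without it 8 genes could be tested and 2 were lower, with a median of 0.02, and DESeq2 called 2 of 14. After thinning 9 of 11 were lower. S100a8 and S100a9, which encode the alarmin calprotectin and are also neutrophil genes, were lower by -4.02 ± 0.22 and -2.99 ± 0.22 (edgeR adjusted p = 2.31e-07 and 3.01e-06), a difference carried by wounded library 1, while un-wounded libraries stood at 0 to 1.17 CPM in either set.

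Heat shock genes were lower in 5 of 9 (median -0.47), with Dnajb1, a co-chaperone gene, at -1.27 ± 0.14 (SE, edgeR adjusted p = 3.36e-05). Over all genes tested 5.39% were lower and 2.52% higher, the shares to set beside each count in this paragraph. Of 11 genes of epidermal growth factor (EGF) receptor signalling 6 were lower, among them the ligand genes Hbegf (-1.39 ± 0.24, edgeR adjusted p = 0.00187), Areg and Epgn and the feedback inhibitor genes Errfi1 and Dusp6, and 0 were higher. Cell contact genes were lower in 5 of 14, among them the claudin genes Cldn1 and Cldn4, and glycolysis and hypoxia genes in 5 of 18. Oxidative phosphorylation genes were near those of other basal cells, with a median of 0.02 and 1 of 18 lower. Counts were 0 higher and 4 lower of 13 chemokine and cytokine genes, 0 and 4 of 15 wound edge genes (0 and 1 of 11 after thinning), 0 and 3 of 15 TGF-beta, BMP, WNT and Notch genes, 0 and 3 of 11 interferon response genes (0 and 0 of 8 after thinning), 1 and 0 of 9 MHC class I genes and 2 and 1 of 14 early differentiation genes. Of 12 basal marker genes 2 were higher and 5 lower, and among these Krt15, a basal keratin gene, was lower (-0.23 ± 0.04, edgeR adjusted p = 0.00344), though not in wounded library 3, and did not pass over all 5 libraries (adjusted p = 0.383).

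Over all genes, in the lists or not, the 10 largest differences upward that met a minimum of 50 CPM and had the same sign in every tested library were S100a4, Ikzf2, Kcnq1ot1, Fcgbp, Ltbp4, Col7a1, Pdzd2, Agrn, Itpr3 and Lrp4. Fcgbp, which encodes an IgG Fc-binding protein, was the most abundant of them. It stood at 630, 701 and 691 CPM in wounded and 805 and 928 CPM in un-wounded Col17a1-high cells, against 344, 360, 465, 435 and 531 CPM in other basal cells, and was higher in all 5 libraries (0.75 ± 0.07, SE, edgeR adjusted p = 8.19e-06). Ikzf2, encoding the zinc finger factor Helios, stood at 110, 100.1 and 126 CPM in wounded and 168 and 187 CPM in un-wounded Col17a1-high cells, against 58.1, 69.0, 49.98, 86.4 and 111 CPM (0.76 ± 0.09, edgeR adjusted p = 6.83e-05). It was also higher in all 5. S100a4 had the largest log2 difference (0.79 ± 0.14, edgeR adjusted p = 0.00231) but was lower in wounded libraries 2 and 3. Ltbp4 and Lrp4 were lower in both of these libraries too, each gene with 1 or 2 UMIs in Col17a1-high cells. Pdzd2 stood at 0 CPM in Col17a1-high cells of wounded library 2, and Kcnq1ot1 at 0 CPM in those of wounded library 3. Kcnq1ot1 is an antisense transcript of the Kcnq1 locus, and no source used here states whether counting used strand. The 10 largest downward were S100a8, S100a9, Egr2, Edn2, Fam43a, Krt16, Ier3, Fst, Ch25h and Id1. Id1, a BMP target gene, was lower in all 5 libraries (-1.76 ± 0.14, edgeR adjusted p = 4.52e-06).

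Wounded libraries 2 and 3 did not enter this fit, and their few cells were compared with it by sign only. Of the 872 genes called, 63.0% of 838 had the fitted sign in wounded library 2 and 65.4% of 866 in wounded library 3, against 51.7% and 51.1% of all genes tested. The share was 66.4% and 73.0% for genes called lower, and 55.8% and 49.1% for genes called higher, so the upward side as a whole was not seen in wounded library 3.

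The next comparison set Col17a1-high cells of wounded skin against those of un-wounded skin. The wounded arm of the fit is wounded library 1 alone, which is assumed to vary between libraries as the un-wounded ones do, and the spread comes from 2 un-wounded libraries with 1 residual degree of freedom, pooled over genes by edgeR. Of 9283 genes tested, 115 (1.24%) differed at an adjusted p under 0.05, of which 108 (1.16%) were higher and 7 (0.0754%) lower in wounded skin. DESeq2 called 26, all higher. Over all 5 libraries 76 of 7379 genes (1.03%) differed, 71 higher (0.962%) and 5 lower (0.0678%), and 26 when wounded library 1 was left out of that fit. Without TMM scaling the median of all genes moved to -0.17 from -0.03 (log2).

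The genes that were higher in wounded skin included growth factor ligands, chemokines, stress keratins and alarmins, and growth arrest genes, while hemidesmosome and basement membrane genes had no call. Counts were 5 of 10 EGF receptor signalling genes higher (Hbegf, Areg, Epgn, Errfi1 and Phlda1, median 1.62), 5 of 12 chemokine and cytokine genes (Ccl20, Ccl2, Cxcl1, Cxcl2 and Il1b, median 1.99), 5 of 10 stress keratin and alarmin genes (Krt16, S100a8, S100a9, BC100530 and Slpi, median 2.10, the same with S100a8 and S100a9 at their lower bounds) and 3 of 9 growth arrest genes (Cdkn1a, Sfn and Gadd45a, median 0.45), each with 0 lower. The median over all genes was -0.03. Over all 5 libraries the counts were 5 of 11, 6 of 12, 7 of 10 and 0 of 8, and with wounded library 1 left out of that fit 1 of 10, 3 of 9, 4 of 8 and 0 of 7.

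Epgn, which encodes the EGF receptor ligand epigen, was higher in each wounded library. It stood at 138, 280 and 204 CPM in Col17a1-high cells of wounded libraries 1, 2 and 3, against 21.0 and 16.02 CPM in un-wounded libraries 1 and 2. The groups did not overlap, and the log2 fold change was 3.04 ± 0.40 (SE, edgeR adjusted p = 3.42e-11; 3.28 over all 5 libraries, adjusted p = 1.08e-11). Hbegf, encoding the ligand HB-EGF, stood at 214, 20.02 and 94.2 CPM in wounded and 64.1 and 12.4 CPM in un-wounded libraries (2.63 ± 0.39, edgeR adjusted p = 8.32e-09). Wounded library 2 lay between the un-wounded libraries, with 1 UMI. Areg, encoding amphiregulin, was at 21.4, 0 and 62.8 CPM in wounded and 5.92 and 1.55 CPM in un-wounded libraries (2.65 ± 0.68, edgeR adjusted p = 0.00960), which overlapped through wounded library 2.

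Ptgs2, encoding the prostaglandin-forming enzyme COX-2, was likewise above un-wounded skin in each wounded library. Its values were 152, 40.04 and 126 CPM in wounded and 18.8 and 22.2 CPM in un-wounded libraries (3.03 ± 0.40, SE, edgeR adjusted p = 3.19e-11). Fosl1, encoding the AP-1 subunit FRA1 that is made at wound edges, stood at 251, 20.02 and 141 CPM in wounded and 32.8 and 13.4 CPM in un-wounded libraries (3.59 ± 0.40, edgeR adjusted p = 5.88e-16). Wounded library 2 overlapped un-wounded skin, again with 1 UMI. Arc, an activity-regulated gene best known from neurons, had the largest fold change of the 12 rises named by size, at 104, 0 and 62.8 CPM in wounded and 17.2 and 0.517 CPM in un-wounded libraries (3.70 ± 0.43, edgeR adjusted p = 1.45e-14). The other named rises were Krt16, Phlda1, BC100530, Pmaip1, Ifrd1, Ccl20 and Ch25h, with log2 fold changes between 2.65 and 3.67.

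Krt16 stood at 205, 20.02 and 31.4 CPM in wounded and 13.999 and 21.7 CPM in un-wounded libraries (3.67 ± 0.40, SE, edgeR adjusted p = 3.93e-16), so its rise was large in wounded library 1 and not resolved in the others, where these levels are 1 and 2 UMIs. BC100530, a stefin gene of a family of near-identical copies whose reads may be shared, ran the other way, at 64.2, 1521 and 2151 CPM in wounded and 2.15 and 16.02 CPM in un-wounded libraries (2.95 ± 0.44, edgeR adjusted p = 1.83e-08). S100a8 had 20, 11 and 1 UMIs and S100a9 22, 31 and 7 UMIs in wounded libraries, against 0 and 0 UMIs of either gene in un-wounded libraries. Against a floor of 3 UMIs over the un-wounded group, wounded library 1 was at least 27.0-fold higher for S100a8 and at least 29.7-fold higher for S100a9 (edgeR adjusted p = 5.59e-06 and 4.95e-07).

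Markers of other cells moved with the wound in these barcodes. The 5 neutrophil markers, which include S100a8 and S100a9, summed to 50.3, 881 and 173 CPM in Col17a1-high cells of wounded libraries 1, 2 and 3, against 0.538 and 0.517 CPM in un-wounded libraries. The 7 macrophage or monocyte markers summed to 74.8, 100.1 and 78.5 CPM in wounded and 18.8 and 26.9 CPM in un-wounded libraries. The 6 fibroblast markers summed to 1301, 581 and 267 CPM in wounded and 428 and 966 CPM in un-wounded libraries, which overlapped, and the MHC class II genes to 258, 601 and 298 CPM against 253 and 158 CPM. The 4 skeletal muscle markers summed to 80.2, 100.1 and 47.1 CPM in wounded and 19.9 and 12.4 CPM in un-wounded libraries, which did not overlap, and 1 of them was called. The 4 pericyte or smooth muscle markers, 2 of which were called, summed to 80.2, 0 and 15.7 CPM in wounded and 21.0 and 6.72 CPM in un-wounded libraries, which overlapped. Of the neutrophil markers 2 were called, of the macrophage or monocyte markers 1, and of the fibroblast and MHC class II markers 0. In Col17a1-high cells the melanocyte markers Pmel, Tyrp1 and Mlana and the endothelial marker Cdh5 were at 0 in all 5 libraries. Their full lists were not at 0 throughout. The 4 melanocyte markers summed to 1.07, 0 and 0 CPM in wounded and 0 and 0.517 CPM in un-wounded libraries. The 4 endothelial markers summed to 4.28, 0 and 0 CPM in wounded and 5.92 and 3.62 CPM in un-wounded libraries.

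Of the 115 genes called, 24 were over 10 times higher in the other kept barcodes than in Col17a1-high cells, by the mean of wounded or of un-wounded libraries. Among them, Cxcl1, encoding a neutrophil-attracting chemokine, stood at 109, 20.02 and 31.4 CPM in wounded and 3.77 and 2.07 CPM in un-wounded Col17a1-high cells (5.34 ± 0.49, SE, edgeR adjusted p = 9.52e-24). The other kept barcodes had 2071, 713 and 1934 CPM of it in wounded and 25.2 and 56.6 CPM in un-wounded libraries. Over all 9283 genes tested, called or not, 393 were over 10 times higher in the other kept barcodes by the same measure. The part of RNA from other cells in these rises was not tested beyond the counts that follow. Without genes of this kind 2 of 9 chemokine and 3 of 8 stress genes were called. When the 75, 6 and 1 wounded and 76 and 190 un-wounded Col17a1-high cells with markers of other cell types were left out, 65 genes were called, with 5 of 10 chemokine, 4 of 10 EGF receptor and 2 of 7 stress genes among them.

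Early response genes leaned upward in wounded library 1 and not over all wounded libraries. Of 15, 2 were higher (Ier3 and Nr4a1) and 0 lower, with a median log2 fold change of 0.74; over all 5 libraries 1 was higher and the median was -0.02. Ier3, with the CPM given above, had a log2 fold change of 2.38 ± 0.39 (SE, edgeR adjusted p = 2.49e-07), and wounded library 2 (80.1 CPM) lay between the un-wounded libraries. Fos did not pass (0.32 ± 0.41, edgeR adjusted p = 0.999). Sfn was higher by 1.42 ± 0.39 (edgeR adjusted p = 0.0205), which rested on wounded library 1, since the values of wounded libraries 2 and 3 lay between the un-wounded ones. Cdkn1a stood at 325, 80.1 and 330 CPM in wounded and 145 and 87.8 CPM in un-wounded libraries (1.63 ± 0.38, edgeR adjusted p = 0.00305), with wounded library 2 the lowest of all. Ovol1 among fate factors, Cldn1 and Cldn4 among cell contact genes and Id3, a BMP target gene, were also higher.

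Adhesion genes had no call in the same comparison. Of 8 genes of the hemidesmosome and its laminin 0 passed (median -0.13), and of 13 basement membrane genes 0 passed (median -0.05), with 627 of all 9283 genes at an unadjusted p under 0.05 and 0 of these genes called by DESeq2 either. Col17a1 itself, which the rule holds above its threshold, stood at 1287, 1281 and 1162 CPM in wounded and 1404 and 1456 CPM in un-wounded libraries. Itgb4 stood at 126, 180 and 110 CPM in wounded and 156 and 173 CPM in un-wounded libraries, which overlapped (-0.23 ± 0.41, SE, edgeR adjusted p = 0.999). Trp63 had a log2 fold change of -0.10 ± 0.42 (edgeR adjusted p = 0.999). With a standard error near 0.4, most 2-fold changes would be missed here: in simulated counts this fit recovered 6% of 2-fold and 78% of 4-fold changes. The lack of a call for adhesion genes therefore does not exclude changes of 2-fold or somewhat more.

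Glycolysis and hypoxia genes had a median of 0.63 with 0 of 17 called, and oxidative phosphorylation genes a median of 0.12 with 0 of 18 called. Among the 7 genes that were lower in wounded skin, Gpha2, encoding a glycoprotein hormone subunit, alone met the naming rule. It stood at 40.6, 80.1 and 15.7 CPM in wounded and 157 and 112 CPM in un-wounded libraries (-1.58 ± 0.46, SE, edgeR adjusted p = 0.0490), and the groups did not overlap.

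**Figure D5:**
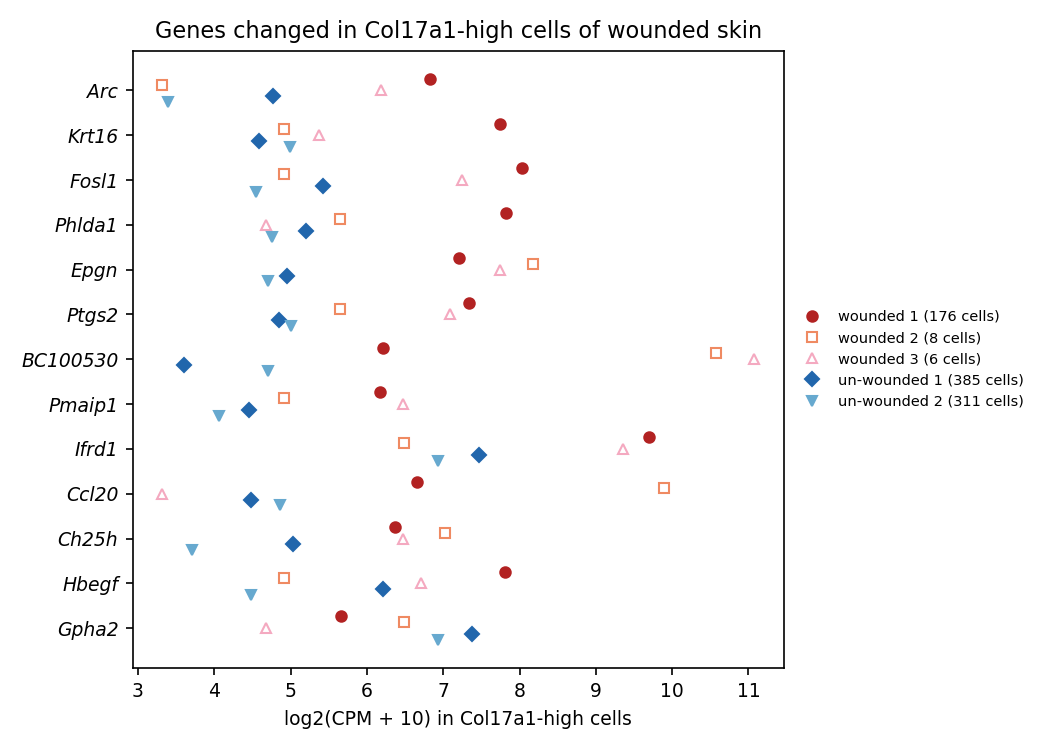
Log2(CPM + 10) in Col17a1-high cells (x axis) of the 12 named genes that rose and the 1 that fell in wounded skin (y axis), with 1 point per library; open points mark wounded libraries 2 and 3, in which 1 UMI is worth 20.02 and 15.7 CPM. Epgn, Ptgs2, BC100530, Pmaip1 and Ch25h have all 3 wounded libraries above both un-wounded ones, while wounded library 2 or 3 overlaps the un-wounded range for Arc, Krt16, Fosl1, Phlda1, Ifrd1, Ccl20 and Hbegf.

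Whether the wound effect differed between Col17a1-high and other basal cells was tested by an interaction term, with libraries blocked, on wounded library 1 and both un-wounded libraries. Of 11012 genes, 31 (0.282%) differed, 19 with a larger and 12 with a smaller log2 effect in Col17a1-high cells; without TMM scaling the counts were 75 and 27. Over all 5 libraries 32 of 9464 genes (0.338%) differed. Genes with a larger effect in Col17a1-high cells included Fosl1 and Ier3, and those with a smaller one Fabp5, Sprr1a and Stfa3, the 5 with the smallest p among abundant genes.

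Ier3 showed the pattern of the larger effects in wounded library 1. Its gap between Col17a1-high and other basal cells was 497 against 952 CPM in wounded library 1, and 141 against 705 and 70.8 against 386 CPM in un-wounded libraries, so that the wound effect differed by 1.45 on the log2 scale (edgeR adjusted p = 0.000688; 1.15 and 0.0661 over all 5 libraries). For Fosl1 the same gap was 251 against 314 CPM in wounded library 1 and 32.8 against 129 and 13.4 against 77.2 CPM in un-wounded libraries, a difference of 1.85 (edgeR adjusted p = 0.00111; 1.72 and 4.50e-06 over all 5). For both genes the un-wounded Col17a1-high cells had the lowest levels of these 3 libraries. In wounded library 2, outside the fit, the gap of Ier3 was 80.1 against 690 CPM, wider than in un-wounded skin. That level is 4 UMIs in Col17a1-high cells. In wounded library 3 the gap of Ier3 was 471 against 701 CPM, with 30 UMIs in Col17a1-high cells. The gaps of Fosl1 were 20.02 against 99.7 CPM in wounded library 2 and 141 against 205 CPM in wounded library 3.

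Fabp5, encoding a fatty acid-binding protein of activated epidermis, had the opposite pattern. It stood at 40.6, 140 and 235 CPM in Col17a1-high and 201, 2197 and 1851 CPM in other basal cells of wounded libraries 1, 2 and 3, against 40.9 and 31.0 CPM in Col17a1-high and 35.0 and 32.3 CPM in other basal cells of un-wounded libraries. The wound effect was smaller in Col17a1-high cells by -2.40 (log2, edgeR adjusted p = 0.000672; -3.17 and 1.53e-14 over all 5 libraries), and in each wounded library other basal cells had more. Sprr1a, a cornified envelope gene, stood at 10.7, 20.02 and 31.4 CPM in Col17a1-high and 130, 53.7 and 208 CPM in other basal cells of wounded libraries, against 26.4 and 10.3 CPM in Col17a1-high and 31.0 and 10.1 CPM in other basal cells of un-wounded libraries (-3.43, edgeR adjusted p = 0.000672). Fabp5 itself did not pass for wounded against un-wounded Col17a1-high cells (0.33 ± 0.44, SE, edgeR adjusted p = 0.999).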

How the data were processed

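The values the authors deposited are unnormalized UMI counts of each gene in each barcode. The submitters' processing notes name Cell Ranger 1.3.1 and mm10, and the annotation and counting settings are not given in the sources used here. Libraries were grouped as wounded or un-wounded by their labels. The cells and all gene lists were chosen with earlier results of these data known. UMIs were summed per library and cell set and fitted with edgeR 4.0.16 in R 4.3.3 (filterByExpr, TMM, quasi-likelihood F-test), with an adjusted p under 0.05 as the threshold over all genes tested and library as a block within libraries. A minimum of 10 Col17a1-high cells per library left 3 libraries in the fits. CPM are a gene's share of a set's UMIs scaled to one total, while log2 differences carry TMM scaling, and levels are compared within a gene. The SE of a log2 difference was derived as its absolute value over the square root of the test's F statistic. It is therefore not a spread measured between libraries for that gene. For shares, the exact permutation test (two-sided) ran over libraries.

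Named genes met an adjusted p under 0.05 and 50 CPM in the higher group. Between wounded and un-wounded skin they also needed an absolute log2 fold change of 1, groups that did not overlap among the libraries fitted and at least 33.3% of the CPM of other kept barcodes, and the 12 largest rises and falls were named; 58 rises and 1 fall passed. Within libraries the 10 largest of each direction with one sign in the libraries tested, for the interaction the 5 smallest p, and the hemidesmosome genes and the 3 most abundant genes of each of 20 lists were considered. Mitochondrial, ribosomal protein, Gm-number, Rik and rule genes were left out. Simulated counts with 200 changed genes gave 89% of 2-fold and 98% of 4-fold changes recovered within libraries, and 22% and 71% for the interaction.

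Alternatives were Col17a1 thresholds of 5 and 20 per 10000, 500 genes as the minimum, 5% as the mitochondrial limit, Scrublet (scanpy 1.11.5; the highest scores removed at 0.8% per 1000 barcodes, 12 Col17a1-high cells in all, otherwise doublets were kept), no TMM, no low-count filter, DESeq2 1.42.0, thinning to 2000 UMIs, leaving out genes or barcodes of other cell types, the 2 highest cells of each gene, and each library. Fits over all 5 libraries were chosen after seeing the data. Promoters came from RefSeq (GRCm38.p6) and positions from the GRCm38 annotation, joined on Ensembl IDs. Other tools were Python 3.11.15, numpy 2.4.6, pandas 2.3.3, scipy 1.17.1 and matplotlib 3.10.9. Values of some list members are not reported here.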

Additional observations from a re-analysis of the deposited data

Results flagged for a closer look

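These named genes had a wound effect in Col17a1-high cells that differed from that in other basal cells of the same libraries, by edgeR's interaction test at an adjusted p under 0.05 over all genes, with 1 wounded and 2 un-wounded libraries. The effect in Col17a1-high cells was larger, on the log2 scale, by 1.92 for Krt16, 1.85 for Fosl1, 1.51 for Phlda1, 1.29 for Epgn, 1.47 for Ptgs2, 0.963 for Ifrd1, 1.45 for Ier3 and 1.03 for Id3. It was smaller for BC100530 (-2.75), Fabp5 (-2.40), Sprr1a (-3.43) and Stfa3 (-3.06). Krt16 and Phlda1 went the other way in wounded libraries 2 and 3, which the fit left out. Krt16 stood there at 20.02 and 31.4 CPM in Col17a1-high cells, against 1173 and 1234 CPM in other basal cells. Phlda1 stood at 40.04 and 15.7 against 353 and 327 CPM in the same sets. Ifrd1 and Ier3 went the other way in wounded library 2, and BC100530 in wounded library 3. For all but BC100530 these Col17a1-high levels are 1 to 4 UMIs. For Stfa3 in wounded libraries 2 and 3, the ratio of Col17a1-high to other basal cells lay between those of the un-wounded libraries. The same held for Fosl1 in wounded library 2, so neither gene showed a direction there. Over all 5 libraries Fosl1, Epgn, Ptgs2, Fabp5, Sprr1a and Stfa3 stayed past the threshold, and Krt16, Phlda1, BC100530, Ifrd1, Ier3 and Id3 did not. Stefin genes such as Stfa3 and BC100530 are near-identical copies whose reads may be shared.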

How the results depend on the processing

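Shares of Col17a1-high cells kept their direction under all alternatives run. For wounded against un-wounded cells the 115 genes called became 3 with Col17a1 of at least 20 per 10000, 26 with DESeq2 and 65 without barcodes of other cell types; over all 5 libraries there were 76, 75 with replicate number as a block, and 26 (without wounded 1), 87 (wounded 2), 69 (wounded 3), 43 (un-wounded 1) and 30 (un-wounded 2) when 1 of the 5 was left out. Within libraries the 872 genes became 198 and 356 with Col17a1 of at least 5 and 20, 1310 with no low-count filter, 311 with DESeq2, 487 after thinning, 584 to 599 when each library was left out, and over all 5 libraries 364 without un-wounded 1, 430 without un-wounded 2 and up to 1015 without another. The interaction's 31 became 7 with Col17a1 of at least 20, 109 with a mitochondrial limit of 5%, 19 with Scrublet, 102 without TMM, 96 with no filter, 19 with DESeq2 and over all 5 libraries 92 without wounded 1, 8 without un-wounded 1 and 6 without un-wounded 2. The cause was not tested. The difference in median UMIs per cell (982) ran from -264.2, without wounded library 3, to 1752 when each library was left out; that in median genes (-15.67) ran from -161.2 to 129.8 (36.25 without wounded 1, 60.75 without wounded 2, 129.8 without un-wounded 2) and was 4.667 with a mitochondrial limit of 5% and 39.17 without barcodes of other cell types. Of 3383 values of named genes, 3040 kept their side of the threshold and, where both fits passed it, their direction. Values that missed it in both fits were counted as kept whatever their sign. Ccl20 within libraries, for instance, was -0.1992 in the main fit and 0.4722 over all 5 without wounded 1. Among values that passed in at least 1 of the fits compared, 10 reversed. With Col17a1 of at least 20 these were Hbegf (-0.3201), Ier3 (-0.306), Cdkn1a (-0.4842) and Id3 (-0.4741) for the wound and Ier3 (-1.625) for the interaction. For the wound over all 5 libraries without wounded 1 they were Sfn (-0.09037) and Dnajb1 (-0.321). Within libraries they were Krt15 (0.04998) with Col17a1 of at least 5, BC100530 (0.2217) without wounded 1 (lowest -2.41, without un-wounded 2) and Ccl20 (0.6428) over all 5 without un-wounded 1. Without any of its 3 libraries, or with a replicate block on them, the wound fit had no residual degrees of freedom or no group, so a replicate block was run with all 5 libraries. Same-numbered libraries deviated together (r = 0.33 and 0.26 across 2138 genes), but with 2 shared numbers and no shared source in the labels this does not show a pairing. Few Col17a1-high cells in wounded libraries 2 and 3 limit what the wound comparison can resolve.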
